A study of Mus musculus with 12 samples.

Results

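The effect of SFIH was examined over all 12 sequenced tumors of the study, as a factorial main effect in which 6 tumors that were given SFIH were set against 6 that were not, whether or not the anti-PD-1 antibody was given too. SFIH is a fraction of the plant Inula helenium L. enriched in sesquiterpene lactones, and its chief constituents are alantolactone and isoalantolactone. The tumors were MC38 colon carcinomas injected subcutaneously at the right flank of female C57BL/6 mice of wild-type genotype, 6 weeks old, and 3 tumors of each of 4 groups were sequenced. Con received the vehicle and a control IgG2a, and SFIH received 50 mg/kg of SFIH daily by intraperitoneal injection with the control IgG2a. PD received 200 μg of anti-PD-1 antibody 2 times a week, and Comb received both agents. Tumors were taken on day 19. The SFIH side was therefore made of SFIH 1 to 3 and Comb 1 to 3, the other side was made of Con 1 to 3 and PD 1 to 3, and the antibody entered every fit as a block with 2 levels. The 12 tumors are all of the samples of the series, and what was measured is RNA of whole tumor tissue by 3′ mRNA sequencing, although the labels call the source tumor cells.

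The libraries held 7870741 to 12261032 counts. Comb 3 stood apart: its scaling factor of 0.760 was the lowest of the 12, and the other values reached 1.12 at the upper end. It held 14503 detected genes against 15564 to 16465 in the other tumors. The summed level of 40 mitosis and spindle genes was 723 CPM in Comb 3 and 5339 to 6997 CPM in the other 11, and that of 39 macrophage and monocyte genes was 73456 CPM against 5689 to 18851 CPM. CPM is the usual count scaled to a common library size, here after the TMM factors. In bulk tumor RNA, fewer cells of a type and less RNA per cell cannot be told apart. Epithelial genes were low in this carcinoma: Epcam was at 0 counts in 3 tumors and reached 2.53 CPM among the 11 others than Comb 3, Krt8 reached 2.99 CPM there, and Cdx2 was at 0 counts in 8 of 12 tumors.

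Hypoxia-inducible factors (HIF) are transcription factors whose alpha subunits are marked for destruction by oxygen-dependent prolyl hydroxylases. When the hydroxylases are inactive, the factors bind short hypoxia response elements near genes of glycolysis, angiogenesis, mitophagy and the feedback on HIF itself. Solid tumors grown under the skin commonly contain poorly perfused tissue in which these genes are active. Monocytes recruited by CC chemokines are a main source of macrophages in such tumors.

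SFIH-treated tumors showed lower levels of the HIF targets Egln1 and Ddit4, and higher levels of the monocyte chemokine Ccl7 and the complement receptor C5ar1. None of the 13464 genes tested passed an adjusted p of 0.05 in edgeR with all 12 tumors, where the smallest adjusted p was 0.253. At an unadjusted p under 0.05, 1091 genes (8.1%) were higher with SFIH and 771 (5.73%) were lower. DESeq2 called 245 genes (1.82%), 118 higher and 127 lower, and limma voom with sample weights called 229 (1.7%), 92 higher and 137 lower, and 133 genes were called by both. Without Comb 3, edgeR called 54 of 13621 genes (0.396%), of which 17 were higher and 37 lower, and at an unadjusted p under 0.05 the counts were 1070 higher (7.86%) and 1155 lower (8.48%). The common dispersion was 0.162 with Comb 3 and 0.0639 without it. It takes in the spread between replicate tumors and any departure of the group means from the sum of antibody and SFIH effects. These 54 genes were chosen in 11 of the same 12 tumors, so their agreement with the 12 tumors is partly built in. All 54 had the same direction with 12 tumors, and 51 had an unadjusted p under 0.05 in edgeR. Of the 54, 39 were among the DESeq2 calls and 53 among the limma voom calls there. Without Comb 3, DESeq2 called 587 genes and limma voom 172, and no gene was called in edgeR with the replicate number as a block.

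The 2 antibody strata share no tumor, so each gives a separate estimate of the SFIH effect. Across 13464 genes the log2 fold changes of SFIH against Con and of Comb against PD had a Pearson r of 0.362 and the same sign in 63.5% of genes. Genes are not independent replicates, and this r is a description. Among the 303 genes with an unadjusted p under 0.05 in SFIH against Con, 275 had the same sign in Comb against PD. Levels did not overlap between the tumors with and without SFIH in either stratum for 193 genes that were higher (1.43%) and 365 that were lower (2.71%) among all tested. These 558 genes reached a permutation p of 0.005, which is the smallest that the 400 assignments of SFIH within the strata can give (two-sided exact test). After adjustment over all genes the smallest permutation p was 0.121.

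**Figure D1:**
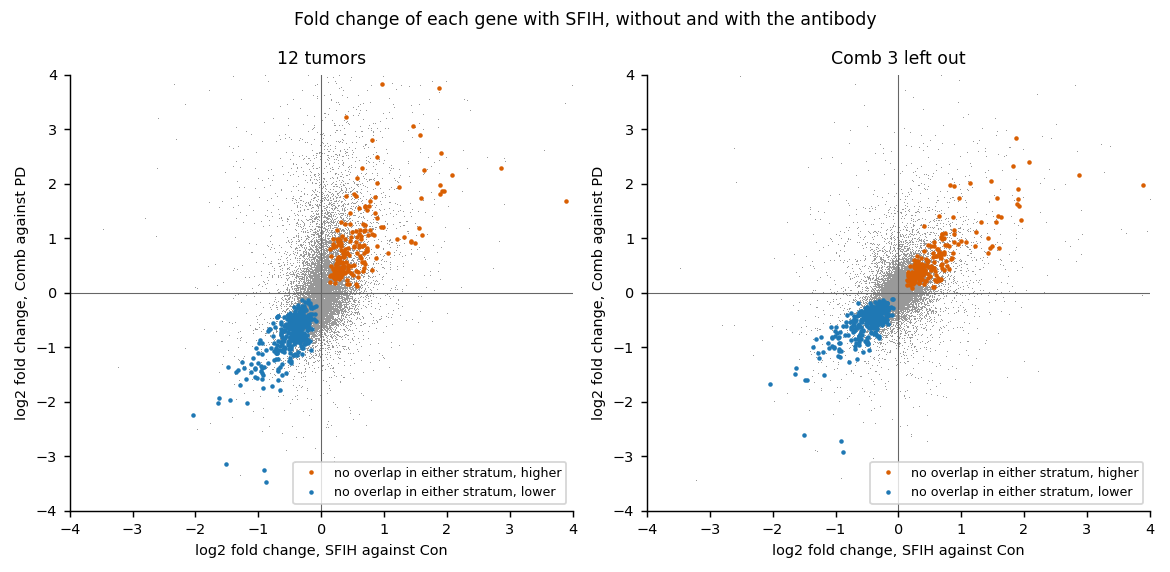
Log2 fold change of each tested gene with SFIH in tumors without the antibody (x axis) and with it (y axis), for 12 tumors at left and with Comb 3 left out at right; coloured points are the 193 higher and 365 lower genes whose tumors did not overlap in either stratum. The coloured points fill the lower left and upper right quadrants by construction, the vertical spread is narrower at right, and 123 and 31 genes lie outside the axes.

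The 12 higher genes with the smallest p included a chemokine, a complement receptor, and enzymes and mitochondrial proteins. Ccl7 encodes a chemokine that attracts monocytes. Its level was 57.8, 80.8 and 82.7 CPM in Con 1 to 3, 173, 131 and 106 CPM in SFIH 1 to 3, 68.5, 82.8 and 51.1 CPM in PD 1 to 3, and 176, 123 and 225 CPM in Comb 1 to 3. Every tumor given SFIH was above every tumor that was not. The log2 fold change was 1.13 ± 0.20 (SE, 6 tumors a side; edgeR unadjusted p = 0.000121, adjusted p = 0.253), and it was 1.01 without Comb 3 (adjusted p = 0.0417).

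C5ar1, the receptor of the complement fragment C5a on myeloid cells, was at 11.1 to 12.5 CPM in Con and 17.3 to 20.4 CPM in SFIH, and at 17.1 to 21.8 CPM in PD and 27.8 to 47.2 CPM in Comb. The tumors did not overlap within a stratum, although SFIH and PD tumors lay in the same range, and the log2 fold change was 0.80 ± 0.15. Chil3, a chitinase-like protein made by myeloid cells, was at 2.51 to 5.79 CPM in Con, 11.5 to 14.1 CPM in SFIH, 10.4 to 22.4 CPM in PD and 31.8 to 248 CPM in Comb. The upper value of Comb was Comb 3, and the log2 fold change was 2.26 ± 0.48 with it and 1.65 without it (edgeR adjusted p = 0.253 and 0.0403). Chil3 has close paralogs, and the counting of reads shared between them is not given in the sources used here.

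Ube2l6, the conjugating enzyme for the interferon-induced modifier ISG15, was at 12.3 to 15.2 CPM in Con, 20.4 to 44.1 CPM in SFIH, 7.64 to 10.9 CPM in PD and 11.1 to 25.4 CPM in Comb. The proteasome subunit gene Psmb2 was higher by 0.56 ± 0.12 on the log2 scale, and the ubiquitin ligase gene Rnf5 by 1.33 ± 0.27. Sdhd, which encodes a subunit of succinate dehydrogenase, was at 7.28 to 32.8 CPM in Con and 47 to 107 CPM in SFIH, and at 15.3 to 33.6 CPM in PD and 46.4 to 129 CPM in Comb. Its log2 fold change was 1.95 without the antibody and 1.86 with it, and the latter was 1.33 without Comb 3. Mrps28, a protein of the mitochondrial ribosome, was higher by 1.85 ± 0.39, and Eral1, which acts in assembly of that ribosome, by 0.57 ± 0.12. The others were Asl (0.70 ± 0.15), an enzyme of the urea cycle, Podn (1.97 ± 0.42), a proteoglycan of the matrix, and 2200002D01Rik (0.57 ± 0.11). Without Comb 3, Sdhd, Mrps28, Rnf5, Podn, Asl and Eral1 had an edgeR adjusted p of 0.0595, and the other 6 higher genes passed.

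The 12 lower genes with the smallest p included an exoribonuclease, 2 Golgi proteins and a DNA polymerase. Xrn1 encodes the cytoplasmic 5′ to 3′ exoribonuclease, and its level was 69.8, 59.3 and 57 CPM in Con 1 to 3, 34, 32.7 and 40.5 CPM in SFIH 1 to 3, 62.5, 62.9 and 59.7 CPM in PD 1 to 3, and 37.1, 34.6 and 19.4 CPM in Comb 1 to 3. All 6 tumors given SFIH were below all 6 that were not, and the log2 fold change was -0.91 ± 0.16. It had the smallest adjusted p without Comb 3 (0.0207, log2 fold change -0.79). Erbb2ip, a scaffold that binds the receptor ERBB2, had the smallest p with 12 tumors among genes of at least 50 mean counts (5.27e-05), at 57.9 to 80.5 CPM in Con, 33.8 to 45.9 CPM in SFIH, 72.7 to 73.7 CPM in PD and 42.8 to 50.5 CPM in Comb. Gfpt1, which catalyses the first step of the hexosamine pathway, was at 145 to 168 CPM in Con, 87.8 to 110 CPM in SFIH, 113 to 183 CPM in PD and 73.6 to 106 CPM in Comb.

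Stc1, a secreted stanniocalcin, was at 15.7 to 26.1 CPM in Con, 10.4 to 10.8 CPM in SFIH, 16 to 17.6 CPM in PD and 3.49 to 7.97 CPM in Comb. Its log2 fold change was -1.14 ± 0.22, and the tumors with and without SFIH did not overlap. Trip11 and Tgoln2, proteins of the Golgi, were lower, at -0.96 ± 0.19 and -0.78 ± 0.17. The remaining genes were Aff4 (-0.69 ± 0.14), a scaffold of transcription elongation, Rev3l (-0.82 ± 0.17), the catalytic subunit of the translesion polymerase zeta, Tnks (-0.85 ± 0.18), a tankyrase, Slain2 (-0.57 ± 0.12), a microtubule plus-end protein, Fam168a (-0.66 ± 0.13), and Egln1. These 24 genes were chosen by p and by the same sign in both strata, so agreement on the same tumors follows partly from the choice. All 24 did not overlap within either stratum. With 12 tumors, 24 passed in DESeq2 and 23 in limma voom, and 17 passed in edgeR without Comb 3. The fold change was smaller in size without Comb 3 in 20 of the 24.

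**Figure D2:**
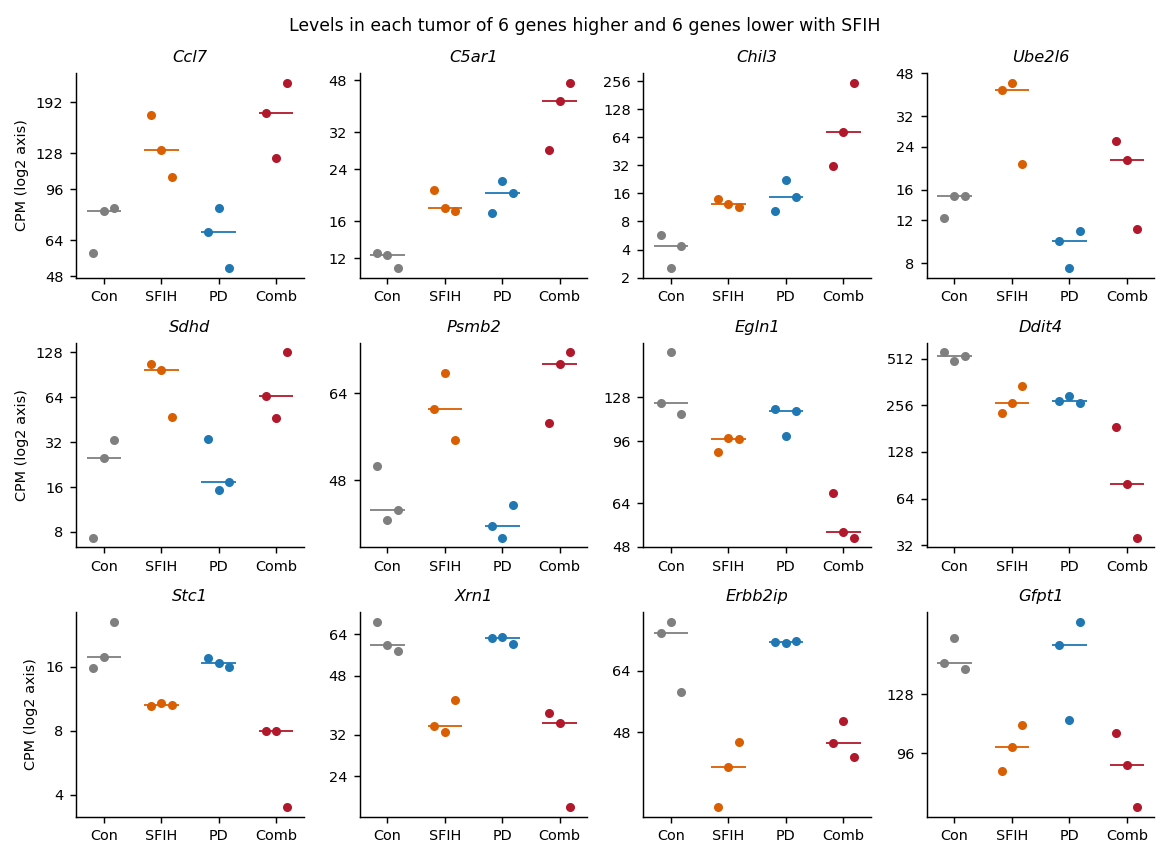
Level in CPM (log2 axis) of 12 genes in each tumor, replicates 1 to 3 from left to right within a group, with the group median as a line. Within Con and SFIH, and within PD and Comb, the points of the genes shown do not overlap. Comb 3 is the highest or lowest point of Comb for all 12 genes, such as Chil3 (248 CPM) and Ddit4 (35.6 CPM). It lies on the side toward PD for Ube2l6 (11.1 CPM) and on the side away from PD for the others.

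Hypoxia and glycolysis genes were lower as a group. Of 34 tested, 27 were lower and 7 higher, and 14 were lower and none higher at an unadjusted p under 0.05 in edgeR, against 5.73% and 8.1% of all genes. None passed the adjusted threshold with 12 tumors. The median log2 fold change was -0.26, against 0.02 over all genes tested, and it was -0.20 without the antibody and -0.42 with it. Without Comb 3 it was -0.25, with 15 lower at an unadjusted p under 0.05 and 2 that passed the adjusted threshold, Egln1 and Ddit4.

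Promoters are shown for the 4 genes of this list with the smallest p, because 14 of the 34 list genes were lower at an unadjusted p under 0.05 and these 4 windows hold the core of the hypoxia response element. The letters searched were ACGTG and GCGTG on both strands, so that CACGT and CACGC count as matches on the other strand. CACGTG, which is also the E-box of MYC and other factors, counts on both strands. Each sequence is the 250 bases before the RefSeq start of the gene (GRCm38.p6), written 5′ to 3′ on the strand of the gene, and capitals mark the matches.
Egln1, minus strand, chr8:124949255-124949504
Egln1: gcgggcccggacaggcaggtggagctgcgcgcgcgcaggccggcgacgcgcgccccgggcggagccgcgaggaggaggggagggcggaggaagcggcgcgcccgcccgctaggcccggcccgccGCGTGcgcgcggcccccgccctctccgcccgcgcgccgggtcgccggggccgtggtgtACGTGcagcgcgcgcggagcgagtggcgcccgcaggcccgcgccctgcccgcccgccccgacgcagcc
Ddit4, minus strand, chr10:59951771-59952020
Ddit4: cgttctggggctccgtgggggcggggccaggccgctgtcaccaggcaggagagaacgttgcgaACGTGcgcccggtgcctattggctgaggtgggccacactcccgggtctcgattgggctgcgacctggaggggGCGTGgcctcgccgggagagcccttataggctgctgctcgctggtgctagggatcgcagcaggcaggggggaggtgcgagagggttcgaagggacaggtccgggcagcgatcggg
Bnip3, minus strand, chr7:138909507-138909756
Bnip3: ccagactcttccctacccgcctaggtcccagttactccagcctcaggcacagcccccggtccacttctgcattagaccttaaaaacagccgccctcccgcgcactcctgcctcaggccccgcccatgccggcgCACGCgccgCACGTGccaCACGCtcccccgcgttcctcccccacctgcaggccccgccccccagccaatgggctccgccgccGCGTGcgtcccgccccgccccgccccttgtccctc
Ankrd37, minus strand, chr8:45999851-46000100
Ankrd37: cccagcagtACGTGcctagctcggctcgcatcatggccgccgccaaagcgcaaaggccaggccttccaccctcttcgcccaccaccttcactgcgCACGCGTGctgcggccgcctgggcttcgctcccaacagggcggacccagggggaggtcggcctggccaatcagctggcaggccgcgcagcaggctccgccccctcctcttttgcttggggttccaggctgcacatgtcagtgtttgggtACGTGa
Egln1 and Ddit4 held 2 matches each, Bnip3 held 5 and Ankrd37 held 4. Of the 34 list genes tested, 32 had a window in the RefSeq table, and 30 of them (93.8%) held a match. Of the 14 that were lower at an unadjusted p under 0.05, 13 had a window and 12 (92.3%) held a match, which is no higher than the share of the whole list. Among all genes tested, 10666 had a window and 59.8% of them held one. The share was 65.8% of the 614 genes with a window that were lower at an unadjusted p under 0.05, and 50.7% of the 856 that were higher. A match is a description of the letters and no evidence of binding.

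Egln1 encodes the main prolyl hydroxylase of HIF and is itself a HIF target, with 2 matches in the window above. Its level was 124, 172 and 115 CPM in Con 1 to 3, 89.4, 97.9 and 97.1 CPM in SFIH 1 to 3, 119, 99.3 and 117 CPM in PD 1 to 3, and 68.3, 52.9 and 50.9 CPM in Comb 1 to 3. All tumors given SFIH were below all tumors that were not. The log2 fold change was -0.75 ± 0.15 (edgeR unadjusted p = 0.000255), and it was -0.53 without the antibody and -0.96 with it (edgeR interaction adjusted p = 0.894).

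Ddit4, an inhibitor of mTORC1 signalling induced by hypoxia and stress, was at 567, 497 and 536 CPM in Con 1 to 3, 229, 264 and 341 CPM in SFIH 1 to 3, 272, 296 and 266 CPM in PD 1 to 3, and 185, 79.1 and 35.6 CPM in Comb 1 to 3. The tumors did not overlap within a stratum, and SFIH and PD tumors lay at a like level. The log2 fold change was -1.21 ± 0.31 with 12 tumors and -0.997 without Comb 3 (adjusted p = 0.283 and 0.0477). Bnip3, a receptor of mitophagy, was lower, at -0.46 ± 0.13, with SFIH 3 (249 CPM) inside the range of Con (214 to 310 CPM) and Comb (97.3 to 111 CPM) below PD (148 to 173 CPM). Ankrd37, a HIF target of the ankyrin repeat family, was lower, at -0.53 ± 0.16 (permutation p = 0.015, exact). Without Comb 3, Bnip3 and Ankrd37 missed an adjusted p of 0.05 in edgeR (0.11 and 0.111) and in limma voom (0.112 and 0.123) and passed it in DESeq2 (0.0199 and 0.0267).

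The other members with an unadjusted p under 0.05, named after their values were seen, were Pdk1, Kdm3a, Pgam1, P4ha1, P4ha2, Pgk1, Ndrg1, Gpi1, Ero1l and Vegfa. They include enzymes of glycolysis and of collagen hydroxylation. Gapdh (0.07), Ldha (0.09), Aldoa (0.06) and Pkm (-0.05), which also encode enzymes of glycolysis, and Hif1a (0.07) had log2 fold changes near 0. The summed level of 35 list genes was 7309 to 9576 CPM in Con, 7065 to 8340 CPM in SFIH, 6248 to 6459 CPM in PD and 4830 to 5715 CPM in Comb. The sums overlapped between Con and SFIH and did not overlap between PD and Comb.

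Most oxidative phosphorylation and ribosomal protein genes were higher with 12 tumors. Of 73 oxidative phosphorylation genes 64 were higher, 23 of them and none of the lower ones at an unadjusted p under 0.05, where 7064 of all 13464 genes were higher and 8.1% were at that threshold. The median log2 fold change was 0.32 with 12 tumors, 0.12 without Comb 3 and 0.06 in SFIH against Con. Atp5j2, a subunit of ATP synthase, was at 474 to 563 CPM in Con, 665 to 717 CPM in SFIH, 455 to 522 CPM in PD and 601 to 1042 CPM in Comb. The tumors did not overlap, and Atp5j2 passed without Comb 3 (log2 fold change 0.45, adjusted p = 0.0477). Ndufa4, a subunit of the respiratory chain, was higher by 0.46 ± 0.11, and Atp5c1, the gamma subunit of ATP synthase, by 0.44 ± 0.12.

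Of 79 cytosolic ribosomal protein genes 74 were higher, and at an unadjusted p under 0.05 24 were higher and 1 lower. The median log2 fold change was 0.31 with 12 tumors, 0.19 without Comb 3 and 0.11 in SFIH against Con. Rpl35 and Rps13 were higher by 0.54 ± 0.17 and 0.57 ± 0.17. Ribosomal protein genes have many processed pseudogenes, and how reads shared with these copies were counted is not given in the sources used here. The summed ribosomal protein level was 66597 to 81759 CPM in Con and 65704 to 96861 CPM in SFIH, which overlap, and 71350 to 73530 CPM in PD and 73990 to 136907 CPM in Comb, which do not.

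The fold change moved with transcript length. The longest annotated transcript (GENCODE M21) had a median of 2310 bases among the genes higher at an unadjusted p under 0.05, 4616 bases among those lower, and 3270 bases among all with a length. Genes were cut by transcript length into 5 equal bins. In the bin with the shortest transcripts, 14.8% were higher and 2.21% lower at that threshold, and in the bin with the longest, 3.75% were higher and 11.4% lower. The median log2 fold change went from 0.20 in the shortest bin to -0.13 in the longest. It went from 0.10 to -0.08 in SFIH against Con, and from 0.17 to -0.12 in Comb against PD without Comb 3. Oxidative phosphorylation genes had a median transcript of 1046 bases and ribosomal protein genes of 1059 bases. The median of all genes in the shortest bin was 0.20 with 12 tumors, 0.14 without Comb 3 and 0.10 in SFIH against Con. The oxidative phosphorylation median lay above it with 12 tumors and below it in the other comparisons, and the ribosomal protein median lay above it in all 3. The part of transcript length in these results was not tested.

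Hypoxia and glycolysis genes had a median transcript of 3370 bases, and their median log2 fold change was below that of all genes in every bin of length. From the shortest to the longest bin, the 9, 3, 9, 10 and 3 list genes had medians of -0.30, -0.23, -0.18, -0.37 and -0.24, where all genes had 0.20, 0.09, 0.01, -0.04 and -0.13. Each of these bins holds few list genes. Ddit4 (1755 bases), Bnip3 (1756 bases) and Ankrd37 (927 bases) are shorter than the median of all genes, and Egln1 (3594 bases) is longer, while Xrn1 (10256 bases), Trip11 (9873 bases) and Aff4 (10099 bases) are among the long ones.

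**Figure D3:**
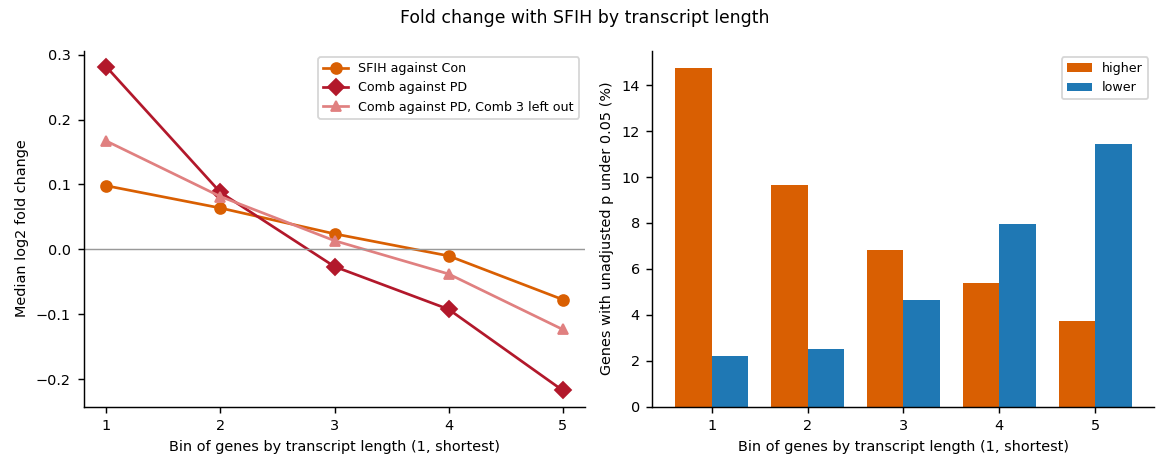
Median log2 fold change with SFIH in 5 equal bins of genes by transcript length (left), within each antibody stratum, and the percent of genes in each bin that were higher or lower at an unadjusted p under 0.05 over 12 tumors (right). All 3 lines at left go down from the shortest to the longest bin, and at right higher genes go from 14.8% to 3.75% and lower genes from 2.21% to 11.4%.

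Macrophage and complement genes were higher as groups, by an amount that turned on Comb 3. Of 37 macrophage and monocyte genes tested 34 were higher, 15 of them at an unadjusted p under 0.05 against 8.1% of all genes, with a median log2 fold change of 0.99. Without Comb 3, 33 of 38 were higher, 7 at that threshold against 7.86% of all genes, and the median was 0.40. The median was 0.27 in SFIH against Con. The summed level was 5736 to 6084 CPM in Con and 5689 to 6570 CPM in SFIH, which overlap. It was 6174, 10439 and 7929 CPM in PD 1 to 3, and 6179, 18851 and 73456 CPM in Comb 1 to 3, where Comb 1 lay within PD.

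Ly6c2, a surface marker of inflammatory monocytes with a close paralog, was at 60.4, 33 and 49.4 CPM in Con 1 to 3, 86.8, 112 and 57.8 CPM in SFIH 1 to 3, 60.3, 106 and 64.4 CPM in PD 1 to 3, and 190, 138 and 143 CPM in Comb 1 to 3. SFIH 3 lay within Con and Comb lay above PD, and the log2 fold change was 0.94 ± 0.21 with Comb 3 and 0.96 without it. Ccl12, another monocyte chemokine, was higher by 1.54 ± 0.48, and by 0.93 without Comb 3. Itgam and Itgb2, which form the integrin Mac-1, were higher by 0.76 ± 0.27 and 1.13 ± 0.37, and by 0.51 and 0.71 without Comb 3.

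C1qb, a chain of complement C1q made by macrophages, was at 125 to 233 CPM in Con, 244 to 279 CPM in SFIH, 235 to 497 CPM in PD, and 250, 1063 and 4814 CPM in Comb 1 to 3. Of 19 complement genes tested all 19 were higher, with 12 tumors and without Comb 3, and the median was 1.08 and 0.51. M2-like macrophage genes had a median of 1.32 with Comb 3 and 0.36 without it, and 0.03 in SFIH against Con. Clec10a, a lectin of such macrophages and of dendritic cells, was at 5.44 to 10.7 CPM in Con, 6.98 to 20.3 CPM in SFIH, 14.1 to 47.5 CPM in PD and 29.7, 161 and 767 CPM in Comb 1 to 3, with a log2 fold change of 1.96 with 12 tumors and 1.03 without Comb 3. M1-like genes had a median of 0.27 with 12 tumors and 0.20 without Comb 3.

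**Figure D4:**
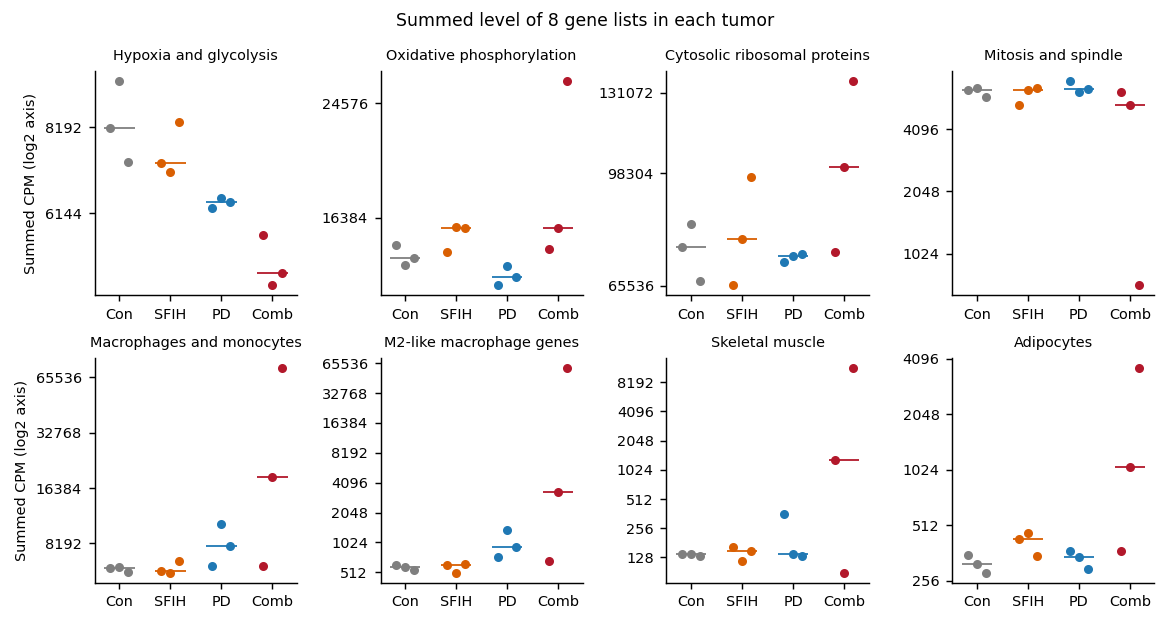
Summed CPM (log2 axis) of 8 gene lists in each tumor, replicates 1 to 3 from left to right within a group, with the group median as a line. The hypoxia and glycolysis sums of Comb (4830 to 5715 CPM) lie below those of PD (6248 to 6459 CPM), and Comb 3 is the extreme tumor for mitosis (723 CPM), macrophages (73456 CPM) and skeletal muscle (11452 CPM).

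Genes of other tissues stood beside the SFIH side too. Skeletal muscle genes summed to 132.8 to 139.3 CPM in Con, 118.4 to 164.9 CPM in SFIH, 131.9 to 359.6 CPM in PD, and 1281, 89.55 and 11452 CPM in Comb 1 to 3. Of 24 tested, 22 were higher, 16 at an unadjusted p under 0.05, with a median log2 fold change of 3.62, and of 1.81 without Comb 3 with 6 at that threshold. Over all genes 8.1% were higher at it with 12 tumors and 7.86% without Comb 3. Myl1, a myosin light chain, was at 0 counts in 6 of the 12 tumors, at 1620 CPM in Comb 3, 82.8 CPM in Comb 1 and 15.9 CPM in PD 1. Pvalb, a calcium buffer of fast muscle, was at 294 CPM in Comb 3 and 30.6 CPM in Comb 1, and at or under 1.92 CPM in the others. Their part in the other results was not tested.

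Adipocyte genes summed to 283.2 to 351.2 CPM in Con, 348.9 to 461.8 CPM in SFIH, 295.4 to 369.3 CPM in PD, and 368.7, 1056 and 3652 CPM in Comb 1 to 3. Of 15 tested 14 were higher, and at an unadjusted p under 0.05 7 were higher with 12 tumors and 7 without Comb 3 (against 8.1% and 7.86% of all genes), with medians of 1.53 and 0.73. Fabp4, a fatty acid binding protein of adipocytes and macrophages, was at 32.8 to 36.8 CPM in Con and 46.3 to 62.4 CPM in SFIH, and at 36.4 to 49.5 CPM in PD and 37.9, 263 and 1050 CPM in Comb 1 to 3. Adipoq, the adipokine adiponectin, was at 38.6 CPM in Comb 2, 34.6 CPM in Comb 3, 11.5 CPM in SFIH 2, and at or under 5.32 CPM in the other tumors. Fibroblast and pericyte genes had a median of 0.80, and of 0.39 without Comb 3, with Acta2 (smooth muscle actin) higher by 1.05 ± 0.37 in the former.

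Collagen and matrix genes had a median log2 fold change of 0.30 with 12 tumors and 0.02 without Comb 3. Of 37 tested, 3 were higher and 1 lower at an unadjusted p under 0.05, against 8.1% and 5.73% of all genes. Without Comb 3, 3 were higher and 3 lower, against 7.86% and 8.48%. Eln (elastin) and Mmp3 (a matrix metalloproteinase) were higher by 2.07 ± 0.65 and 1.80 ± 0.64 with 12 tumors, and by 1.36 and 1.54 without Comb 3. Col18a1, a collagen chain, was lower, at -0.53 ± 0.20, and at -0.44 without Comb 3. Mmp3 was at 227 CPM in Comb 2 and 246 CPM in Comb 3, and at 3.68 to 29.2 CPM in the other 10 tumors, and its log2 fold change in SFIH against Con was 0.81. Neutrophil, skin and erythroid lists had medians of 0.22, 1.502 and 1.03 with 12 tumors, and of 0.34, 0.01 and 0.28 without Comb 3.

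Of 31 T cell genes 28 were higher, with a median of 0.49, and of 0.15 without Comb 3. At an unadjusted p under 0.05 3 were higher, near the 8.1% of all genes. Genes of proteins that the study stained or plotted were compared next. Cd3e, a chain of the T cell receptor complex, was at 1 to 2.68 CPM in Con, 1.04 to 2.69 CPM in SFIH, 2.56 to 7.09 CPM in PD and 2.14 to 15.2 CPM in Comb, with a log2 fold change of 0.27 ± 0.52 that turned to -0.38 without Comb 3. Cd8a was at 4.22 to 8.12 CPM in Con, 4.68 to 6.98 CPM in SFIH, 8.97 to 23.9 CPM in PD and 4.27 to 21.1 CPM in Comb, with a log2 fold change of 0.02 ± 0.39. Its sign turned without TMM, in limma voom and without several single tumors. Gzmb (granzyme B) was at 0.57 ± 0.40 (edgeR unadjusted p = 0.183), and SFIH 1 at 50.1 CPM was above the other 11 tumors (6.1 to 21.4 CPM). Without SFIH 1 the log2 fold change of Gzmb was 0.12, and in limma voom with 12 tumors it was 0.31.

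Adgre1, which encodes the macrophage marker F4/80, was at 17.8 to 38 CPM in Con, 35.1 to 43.4 CPM in SFIH, 30.4 to 90.7 CPM in PD, and 48.3, 171 and 700 CPM in Comb 1 to 3, with a log2 fold change of 1.47 ± 0.63, and 0.70 without Comb 3 (unadjusted p = 0.0369 and 0.0633). Ifng and Cxcl9, an interferon and a chemokine it induces, had log2 fold changes of 1.04 ± 0.60 and 0.27 ± 0.30 (unadjusted p = 0.106 and 0.38), and of 0.84 and 0.18 without Comb 3. With 1 tumor left out, Cxcl9 went from 0.08 (Comb 2) to 0.43 (Con 1). Vegfa, the angiogenic factor and HIF target, was lower, at -0.58 ± 0.24, with -0.10 without the antibody and -1.07 with it (edgeR interaction adjusted p = 0.894). Its tumors overlapped in SFIH against Con and did not in Comb (26.9 to 60.3 CPM) against PD (81 to 115 CPM). Tgfb2 was lower, at -0.62 ± 0.27, and Ido2 was at 0.11 ± 0.43, and at 0.35 without Comb 3. Tgfb1, at 0 to 16 counts, was below the filter on low counts and was not tested.

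Of 48 interferon gamma response genes 35 were higher, 6 at an unadjusted p under 0.05, and 1 was lower at that threshold, with a median of 0.12. Over all genes 7064 of 13464 were higher, 8.1% at that threshold, and 5.73% were lower at it. Psmb9, an immunoproteasome subunit, was higher by 0.67 ± 0.24, while Irf1, the transcription factor that drives part of this response, was lower, at -0.33 ± 0.13. Of 35 type I interferon-stimulated genes 3 were higher and 2 lower, which is near those shares. Without Comb 3, 11 were higher and 2 lower, against 7.86% and 8.48% of all genes. Ifitm3, an antiviral membrane protein, was at 2309 to 2521 CPM in Con, 2821 to 3039 CPM in SFIH, 1979 to 2156 CPM in PD and 2377 to 2672 CPM in Comb, without overlap within either stratum and with a log2 fold change of 0.28 both without and with the antibody. Ifi35 was higher by 0.34 ± 0.13, and Ifih1, the RNA sensor MDA5, was lower, at -0.59 ± 0.18.

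Class I presentation genes had a median of 0.20, with H2-M3, a nonclassical class I molecule, higher by 0.88 ± 0.24 without overlap. Class II and dendritic cell genes had a median of 0.92, of 0.28 without Comb 3, and of 0.04 in SFIH against Con. Of 25 genes of cytotoxic effectors and NK cells 4 were higher at an unadjusted p under 0.05, and 2 without Comb 3 (against 8.1% and 7.86% of all genes, and near the latter), among them Xcl1, a chemokine for cross-presenting dendritic cells (2.08 ± 0.50, and 1.62 without Comb 3).

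For the lists of stress and signalling pathways, counts at an unadjusted p under 0.05 stand beside 8.1% higher and 5.73% lower over all genes. Of 29 NRF2 target and glutathione genes 4 were higher and 4 lower at an unadjusted p under 0.05, and the median log2 fold change was 0.00. Blvrb (0.41 ± 0.13), a biliverdin reductase, and G6pdx (0.36 ± 0.11), which supplies NADPH, were higher, while Gclm (-0.62 ± 0.23), the modifier subunit of glutathione synthesis, and Abcc1 (-0.47 ± 0.16), a glutathione conjugate pump, were lower. Of 27 NF-kappaB target genes 3 were higher and 1 lower, with a median of 0.15. The chemokine Ccl4 (0.63 ± 0.20) and the inhibitor Nfkbie (0.43 ± 0.15) were higher, and Rela, which encodes the p65 subunit, was lower (-0.38 ± 0.14).

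Stat3, the signal transducer of interleukin 6, was at 177 to 232 CPM in Con, 139 to 167 CPM in SFIH, 150 to 197 CPM in PD and 114 to 144 CPM in Comb, without overlap within either stratum and with a log2 fold change of -0.44 ± 0.12. Of 21 STAT3 target genes 1 was higher and 2 lower at an unadjusted p under 0.05. In the TGF-beta pathway 2 of 28 were higher and 3 lower, with 1 and 3 without Comb 3, among them Id3 (0.97 ± 0.30, and 0.64 without Comb 3) and the inhibitor Smad7 (-0.88 ± 0.26), which did not overlap in either stratum. Heat shock genes had a median of -0.04, and of 0.07 without Comb 3, with Cryab, a small heat shock protein abundant in muscle, higher by 2.37 ± 0.68, and by 1.14 without Comb 3. It was at 166 CPM in Comb 3 and at or under 14 CPM in the others. Unfolded protein response genes had a median of -0.06, and of 0.03 without Comb 3. Of 26 tested, 1 was higher and 2 lower at an unadjusted p under 0.05, against 8.1% and 5.73% of all genes. Sdf2l1, a protein of the endoplasmic reticulum, was higher by 0.70 ± 0.26, and by 0.37 without Comb 3.

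Apoptosis genes were higher in 20 of 31 cases, 7 at an unadjusted p under 0.05 and 2 lower, and without Comb 3 4 were higher and 2 lower at that threshold. Casp8 (0.42 ± 0.16), the initiator caspase of death receptors, Casp6 (0.56 ± 0.21) and the pore former Bax (0.48 ± 0.18) were higher, and without Comb 3 Casp6 was at 0.33. Of 21 p53 target genes 3 were higher and none lower, and 2 higher and 1 lower without Comb 3.

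Of the proliferation lists, 36 of 40 mitosis and spindle genes, 32 of 40 DNA replication genes and 27 of 32 Myc and ribosome biogenesis genes were lower with 12 tumors. Without Comb 3, 28, 20 and 9 were lower. Mki67, the marker that the study stained, was at 332 to 477 CPM in Con, 211 to 339 CPM in SFIH, 383 to 520 CPM in PD and 23.5 to 297 CPM in Comb. SFIH 3 lay within Con, Comb lay below PD, and the log2 fold change was -0.85 ± 0.44 (unadjusted p = 0.0805), and -0.57 without Comb 3 (unadjusted p = 0.00119). Pcna, the replication clamp and the only DNA replication gene at an unadjusted p under 0.05 with 12 tumors, was higher by 0.29 ± 0.13. Mitosis and spindle genes had a median of -0.30 with 12 tumors and -0.03 without Comb 3, where 1 of 40 was higher and 5 lower at an unadjusted p under 0.05, against 7.86% and 8.48% of all genes. DNA replication genes had medians of -0.20 and 0.01, and Myc and ribosome biogenesis genes of -0.11 and 0.06.

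**Figure D5:**
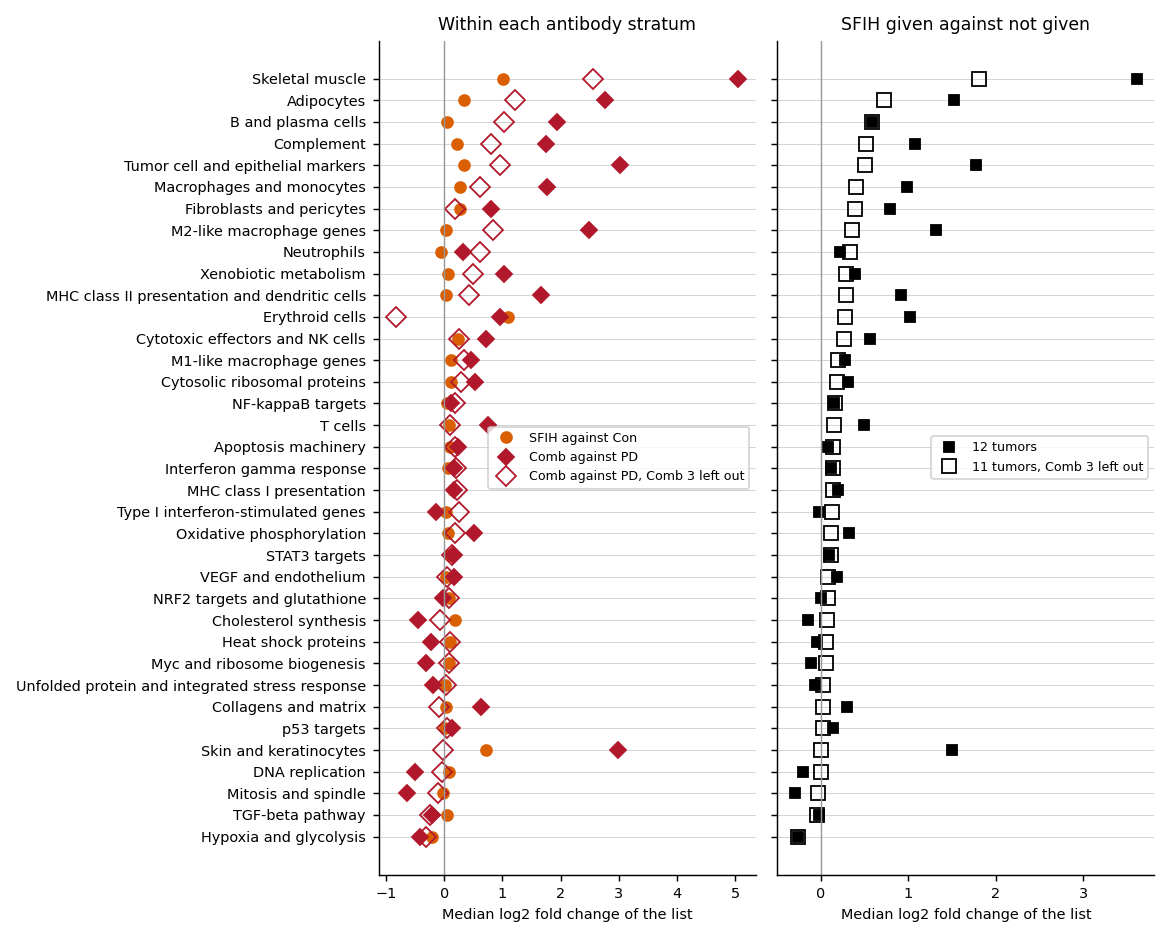
Median log2 fold change of the tested genes of each of 36 lists, for SFIH against Con and Comb against PD with and without Comb 3 (left), and for SFIH given against not given with and without Comb 3 (right). Hypoxia and glycolysis genes have the lowest median at right with 11 tumors (-0.25), and leaving out Comb 3 moves skeletal muscle from 3.62 to 1.81 and macrophages from 0.99 to 0.40.

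The SFIH effect was compared between tumors with and without the antibody by an interaction term. No gene passed the adjusted threshold in edgeR, 344 genes (2.55%) had an unadjusted p under 0.05, DESeq2 called 1 and limma voom none. Without Comb 3 the unadjusted count was 211, and none was called by the 3 tools. Among genes of at least 50 mean counts, 2610528A11Rik had the smallest p (0.000434, unadjusted), with log2 fold changes of 0.45 in SFIH against Con and -2.11 in Comb against PD. Nol3 (0.29 and -0.99), an inhibitor of apoptosis, Suv420h2 (0.22 and -1.13), a histone H4 methyltransferase, and Zranb3 (0.32 and -0.83), a DNA translocase, followed in that direction. In the other direction, Arap2 (-0.57 and 0.74) had values of 41.6 to 54.2 CPM in Con, 31.4 to 34.6 CPM in SFIH, 15.3 to 33 CPM in PD and 29.4 to 41.1 CPM in Comb. Rnase2a (-1.42 and 7.94), a ribonuclease of myeloid cells, was at 1779 CPM in Comb 3 and 99.7 CPM in Comb 2, and at or under 5.86 CPM in the other 10 tumors. Itm2a (-0.68 and 4.05) and Ppp1r3c (-1.09 and 4.14) were also highest in Comb 3, at 186 and 56.2 CPM. Without Comb 3, the log2 fold changes of Rnase2a, Itm2a and Ppp1r3c in Comb against PD were 4.30, 2.14 and 1.76.

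The SFIH effect was also tested within each stratum, as a contrast of 1 fit over all tumors that shares the spread of the 4 groups. In SFIH against Con no gene passed in edgeR or limma voom, 303 had an unadjusted p under 0.05, and DESeq2 called 4. With Comb 3 left out of the shared fit, 1020 had an unadjusted p under 0.05, DESeq2 called 65 and limma voom 3. In Comb against PD no gene passed in edgeR, 2424 had an unadjusted p under 0.05, DESeq2 called 417 and limma voom with sample weights 2004. Without Comb 1 edgeR called 2100 genes there, and without Comb 3 edgeR and limma voom called none, 1228 had an unadjusted p under 0.05 in edgeR, and DESeq2 called 30. The labels do not say more of the tumors than that they are separate samples. These p-values measure the spread between tumors within groups, pooled over the 4 groups, so Comb 3 also enters those of SFIH against Con.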

How the data were processed

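The deposited table holds raw read counts per gene symbol that the authors made from 3′ mRNA libraries (QuantSeq) of 12 tumors. The aligner, counter, genome build and annotation are not given in the sources used here. Genes were filtered by filterByExpr and scaled by TMM, which left 13464 of 23282 lines for testing. The main test was edgeR 4.0.16 (quasi-likelihood, additive model of antibody and SFIH) with Benjamini-Hochberg adjustment at 0.05. Alternatives were DESeq2 1.42.0 (whose undefined adjusted p-values were kept so), limma 3.58.1 (voom with sample quality weights), other scalings and filters, a replicate block, each tumor left out, and an exact permutation test within antibody strata on log2(CPM + 1). Results without Comb 3 with other tools were added after seeing the data. The scripts were tested on simulated counts. Summed levels use the scaled library sizes.

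The members and gene lists were chosen with earlier results of these data known. Named genes were the 12 a direction with the smallest p (mean of at least 50 counts, same sign in both strata), up to 4 of each list by p (mean of at least 20 counts), not all of which are given, genes that the study stained or plotted, and 4 a direction by interaction p. Promoters came from RefSeq (GRCm38.p6), and transcript lengths from GENCODE M21 for 99.1% of the genes tested. No 2 replicates agreed within sampling noise. Counts carry no molecular identifiers, so depth sets counting error only. Some genes are not reported here.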

Additional observations from a re-analysis of the deposited data

Results flagged for a closer look

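On each side of 6 tumors, the gene levels and summed list levels given above were searched for a tumor far from the other 5 on the log2 scale. Of 122 levels, each searched on both sides, 35 values were marked, 24 of them in Comb 3. Chance marks about 1 in 20 groups.

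Comb 3 was the lowest of the SFIH tumors for Xrn1 (19.4 CPM), Stc1 (3.49 CPM), Rev3l (22.5 CPM), Ifih1 (30.7 CPM), Smad7 (2.77 CPM), Abcc1 (27.2 CPM), Gclm (21.1 CPM) and Mki67 (23.5 CPM). It was the highest for Atp5c1 (219 CPM), Nfkbie (52.2 CPM), Sdf2l1 (151 CPM), Bax (25.02 CPM) and Cd3e (15.2 CPM).

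Among summed lists, Comb 3 was the lowest for heat shock proteins (4251 CPM), the unfolded protein response (4071 CPM), type I interferon-stimulated genes (4451 CPM), Myc and ribosome biogenesis (3601 CPM), DNA replication (822 CPM), mitosis (723 CPM) and cholesterol synthesis (776 CPM). It was the highest for p53 targets (886 CPM), neutrophils (1126 CPM), oxidative phosphorylation (26612 CPM) and skin (871 CPM). Comb 2 was the highest for M1-like macrophage genes (2033 CPM).

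Among tumors not given SFIH, Con 1 was the lowest for Rnf5 (5.79 CPM), Ccl12 (9.83 CPM) and Psmb9 (58.4 CPM). Con 3 was the lowest for Erbb2ip (57.9 CPM) and the highest for Stc1 (26.1 CPM). PD 1 was the highest for Myl1 (15.9 CPM), Pvalb (1.92 CPM) and skeletal muscle genes (359.6 CPM). PD 2 was the lowest for type I interferon-stimulated genes (5890.2 CPM) and the highest for epithelial markers (39.8 CPM).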

How the results depend on the processing

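The number of genes called in SFIH given against not given was 0 in edgeR with 12 tumors and 0 without TMM, with upper-quartile scaling, with no filter, with a mean of at least 50 counts, with the 4-group contrast, after permutation and with the replicate block. It was 245 in DESeq2 and 229 in limma voom with sample weights, and it ranged from 0 to 54 when 1 tumor was left out, with 54 for Comb 3 and 0 for every other. With Comb 3 left out it was 587 in DESeq2, 172 in limma voom, 10 without TMM and 0 with the replicate block. The interaction had 1 call in DESeq2. SFIH against Con had 4 in DESeq2, and with Comb 3 left out 65 in DESeq2 and 3 in limma voom. Comb against PD had 417 in DESeq2 and 2004 in limma voom, 30 in DESeq2 and 0 in limma voom with Comb 3 left out, and 0 to 2100 when 1 tumor was left out, with 2100 for Comb 1. Causes were not tested.

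Whether replicate numbers pair the tumors cannot be told from 3 tumors a group. The 18 same-number pairs had a median correlation of -0.00608 in their deviations, against 0.0378 for 36 other pairs. The highest of all pairs was 0.409, for PD 1 and Comb 1. With 12 tumors all 4 counts were 0 in edgeR with and without the replicate block. With Comb 3 left out the block took the main effect from 54 genes to 0.

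Of 92 genes named for the main effect, 86 kept their direction under every alternative run. Cd3e was at -0.22 in limma voom and from -0.38 (Comb 3) to 0.44 (Comb 1) with 1 tumor left out, and with Comb 3 left out at -0.38 in DESeq2, -0.27 in limma voom, -0.42 with the replicate block and -0.40 without TMM. Cd8a was at -0.21 in limma voom, -0.0898 without TMM, -0.0042 with no filter, and from -0.14 to 0.27 with 1 tumor left out. With Comb 3 left out it was at -0.10 in DESeq2, -0.28 in limma voom, -0.16 with the replicate block and -0.16 without TMM. Ido2 went from -0.16 to 0.35 with 1 tumor left out and turned without Con 2, SFIH 1 or Comb 1. Aldoa was at -0.16 in limma voom, -0.0474 without TMM and from -0.17 (Comb 3) to 0.13 with 1 tumor left out, and with Comb 3 left out at -0.16 in DESeq2, -0.165 in limma voom, -0.17 with the replicate block and -0.19 without TMM. Pkm was at 0.0436 in limma voom and from -0.092 to 0.0284 (Comb 3) with 1 tumor left out, and with Comb 3 left out at 0.0353 in DESeq2, 0.0531 in limma voom, 0.0293 with the replicate block and 0.00463 without TMM. Hif1a was at -0.0165 without TMM, and with Comb 3 left out at -0.00365 with the replicate block and -0.0172 without TMM. Low counts limit Tgfb1 (0 to 16 counts), Cd3e and Ifng, whose tumors were at or under 15.2 CPM.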

Other observations

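Retnla, a secreted protein of alternatively activated macrophages, was at 53009 CPM in Comb 3 and 1767 CPM in Comb 2, against 1.6 to 123 CPM in the other 10 tumors. The gene was named after its values were seen.

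Acta1, the skeletal muscle actin, was at 2546 CPM in Comb 3, 193 CPM in Comb 1, 46.1 CPM in PD 1 and 14.5 CPM in SFIH 1, and at 0.223 to 1.5 CPM in the other 8 tumors. Krt14, a keratin of the epidermis, was at 33.4 CPM in Comb 3 and 16.4 CPM in SFIH 1, and at or under 1.04 CPM in the others.

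Of the lists not described above, cholesterol synthesis had a median log2 fold change of -0.14 with 12 tumors and 0.08 without Comb 3, xenobiotic metabolism 0.39 and 0.29, vascular genes 0.19 and 0.09, B and plasma cells 0.59 and 0.59, and epithelial markers 1.77 and 0.50.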
